A study of Mus musculus with 18 samples.

Results

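A set of 41 genes of DNA replication and the G1/S transition was followed through 6 groups of primary mouse Leydig cell cultures. The set was chosen by name: the 41 symbols were looked up in a table of 55487 genes, and all 41 were found. All 41 also passed the filter on low counts that left 16432 genes for testing. Cultures were transfected either with siNC, the control siRNA, or with siprdx1, which targets Prdx1, the gene of a peroxidase that removes hydrogen peroxide. Each arm had 3 groups of 3 libraries. The siNC and siprdx1 groups had no peroxide. The siNC+H2O2 and siprdx1+H2O2 groups had 200 µM H2O2 for 30 min. The siNC+H2O2+FV and siprdx1+H2O2+FV groups had the same peroxide and then 5 µM fluvastatin (FV), a statin that inhibits HMG-CoA reductase in the mevalonate pathway, for 6 h. The other 4 groups spent the 6 h in 0.1% DMSO; the labels record no DMSO for the fluvastatin groups, so the drug and any difference in vehicle cannot be told apart. There was no fluvastatin group without peroxide, so every fluvastatin value below is a value after peroxide. All cultures were kept in medium with serum. The replicates are called biological, without a record of separate animals or isolations, so the p-values measure the spread between these libraries.

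A eukaryotic chromosome is licensed for replication in G1. The origin recognition complex (ORC), Cdc6 and Cdt1 load the ring of Mcm2 to Mcm7 onto DNA as an inactive helicase. At the G1/S transition, cyclin E and its kinase release E2F transcription factors from the retinoblastoma proteins, and Mcm10, Cdc45 and the GINS complex turn the ring into a moving helicase. Primase and the DNA polymerases then copy the strands with the sliding clamp PCNA, its loader RFC, the single-strand binding protein RPA, and the flap endonuclease and ligase that join the fragments of the lagging strand. Ribonucleotide reductase and thymidylate enzymes supply the nucleotides. Mature Leydig cells, the testosterone-producing cells between the seminiferous tubules, seldom divide in the adult testis. In bulk RNA, fewer cells in S phase and less RNA per cell cannot be told apart.

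The promoters show how the E2F link looks in the sequence of these genes. RefSeq (GRCm38.p6) held a window from 250 bases before to 50 after the start for 33 of the 41 genes, 39 windows in all. E2F letters were searched on both strands as TTTCCCGC, TTTCGCGC, TTTGCCGC and TTTGGCGC. They were present in 14 of the 39 windows (35.9%), against 744 of 32851 windows of all genes (2.26%). The CCAAT box was in 24 of the 39 (61.5%, against 37.4% of all windows) and TTTGAA, the letters of the CHR element of late cell-cycle genes, in 5 (12.8%, against 17.9%). Matches on both strands can overlap each other, and a match describes letters only. The windows of the 3 genes that rose with fluvastatin in both arms and of the Mcm6 gene, which carries the most E2F matches and passed in no comparison, are printed on the gene's own strand with E2F matches in capitals. They lie at chr12:24708004-24708303 on the plus strand (Rrm2), chr8:122567765-122568064 on the plus strand (Cdt1), chr2:132253131-132253430 on the minus strand (Pcna) and chr1:128359656-128359955 on the minus strand (Mcm6).
Rrm2: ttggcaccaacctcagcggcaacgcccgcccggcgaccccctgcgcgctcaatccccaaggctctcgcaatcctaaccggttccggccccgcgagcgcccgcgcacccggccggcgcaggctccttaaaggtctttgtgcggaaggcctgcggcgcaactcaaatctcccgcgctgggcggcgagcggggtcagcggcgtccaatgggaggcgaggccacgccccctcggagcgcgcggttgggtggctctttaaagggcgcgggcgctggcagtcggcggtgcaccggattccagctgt
Cdt1: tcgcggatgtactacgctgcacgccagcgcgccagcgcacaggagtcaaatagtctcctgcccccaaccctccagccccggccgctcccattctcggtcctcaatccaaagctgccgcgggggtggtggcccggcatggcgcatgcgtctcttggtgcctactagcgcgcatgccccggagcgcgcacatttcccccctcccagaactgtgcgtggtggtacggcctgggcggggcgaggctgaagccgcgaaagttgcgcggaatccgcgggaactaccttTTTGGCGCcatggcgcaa
Pcna: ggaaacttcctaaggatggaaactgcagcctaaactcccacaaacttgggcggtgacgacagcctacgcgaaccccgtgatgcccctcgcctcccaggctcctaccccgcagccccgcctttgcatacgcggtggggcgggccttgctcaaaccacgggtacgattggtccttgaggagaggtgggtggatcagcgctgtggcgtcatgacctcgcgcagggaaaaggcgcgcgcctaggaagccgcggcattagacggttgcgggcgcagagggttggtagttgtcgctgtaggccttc
Mcm6: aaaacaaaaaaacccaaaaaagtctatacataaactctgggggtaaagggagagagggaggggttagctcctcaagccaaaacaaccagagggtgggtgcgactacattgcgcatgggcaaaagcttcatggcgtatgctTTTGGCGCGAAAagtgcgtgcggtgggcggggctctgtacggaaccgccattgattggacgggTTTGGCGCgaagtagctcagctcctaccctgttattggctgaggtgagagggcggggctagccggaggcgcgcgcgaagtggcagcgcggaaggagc
The Cdt1 window had 1 match, which began at base 33 after the start. The Mcm6 window had 3, of which the pair beginning at -110 and -106 overlapped on opposite strands and the other began at -47. Rrm2 and Pcna had no match to these letters in their windows, and each had 1 CCAAT box.

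The libraries held 15201530 to 23898435 counts, and the spread between libraries of a group corresponded to a biological coefficient of variation of 7.01%. Prdx1 was at 1280 to 1690 CPM (counts relative to the TMM-scaled size of the library) in the 9 siNC libraries and at 426 to 576 CPM in the 9 siprdx1 libraries, so the labels of the arms held in every library. In the siprdx1+H2O2 group, 2 libraries lay at opposite ends of an axis of GC content: the deviation of a gene from its group mean correlated with the GC content of its transcript at -0.38 in replicate 1 and 0.39 in replicate 2, with 0.03 in replicate 3. The counts and calls of the 41 genes that use this group are therefore also given with replicate 3 alone, and those of other genes in 1 paragraph near the end. Other groups were spread on this axis too, at -0.24, 0.36 and -0.13 in siprdx1 and -0.25, -0.07 and 0.33 in siNC+H2O2+FV. The siNC libraries were at 0.17, -0.27 and 0.13. No such fit was made for these groups. Of the 9 Leydig markers, Cyp17a1 and Hsd17b3 were too low to test. Marker sums hold all markers of a list, tested or not, and the Leydig sum was 1090 to 1670 CPM over the libraries. The 14 macrophage markers, all tested, summed to 8060 to 10200 CPM, and the 7 fibroblast markers, 6 of them tested, to 15000 to 19600 CPM. Of 8 germ cell markers, 1 was tested and Acrv1 was at 0.

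The replication genes were present at moderate levels in every library. Their mean ran from 3.58 CPM for Orc1, the large subunit of ORC, to 144 CPM for Pcna, with a median of 21.3 CPM, and the lowest count of any of them in any library was 48. Per kilobase of all annotated exon bases of a gene, Pcna led with 60.1 CPM per kb. These bases can exceed the length of the transcript made (11012 for Rrm1 and 2771 for Rrm2), so the order also depends on the annotation. Rrm2, the small subunit of ribonucleotide reductase, followed with 25.8 and Mcm6 with 20. The 6 genes of the MCM ring, whose products join in equal numbers, ranged from 5.78 (Mcm2) to 20 (Mcm6) CPM per kb. The low value of Mcm2 rests on 6956 exon bases. Mcm5, with 3993 bases, had 11.3 CPM per kb, although their mean levels were 40.2 (Mcm2) and 44.9 CPM (Mcm5). Orc1 was the lowest at 1.03 CPM per kb.

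Levels differed little between the 6 groups. The ratio of the highest to the lowest group mean had a median of 1.21 over the 41 genes and was under 1.3 for 33 of them (80.5%). Among the 14021 genes averaging at least 1 CPM the median was 1.26, and 56.3% were under 1.3. This background was not matched in level to the 41 genes, whose lowest mean was 3.58 CPM, and the ratio also holds counting noise. The widest ratios belonged to Rrm2 (1.66), Cdt1 (1.56), Ccne1 (1.49) and Ccne2 (1.41). Of the 41 genes, 28 passed in none of the 9 comparisons, 8 passed in 1, 4 passed in 2 and Rrm2 passed in 6. A gene passed where its Benjamini-Hochberg adjusted p over all 16432 genes was below 0.05 by edgeR's quasi-likelihood test.

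**Figure D1:**
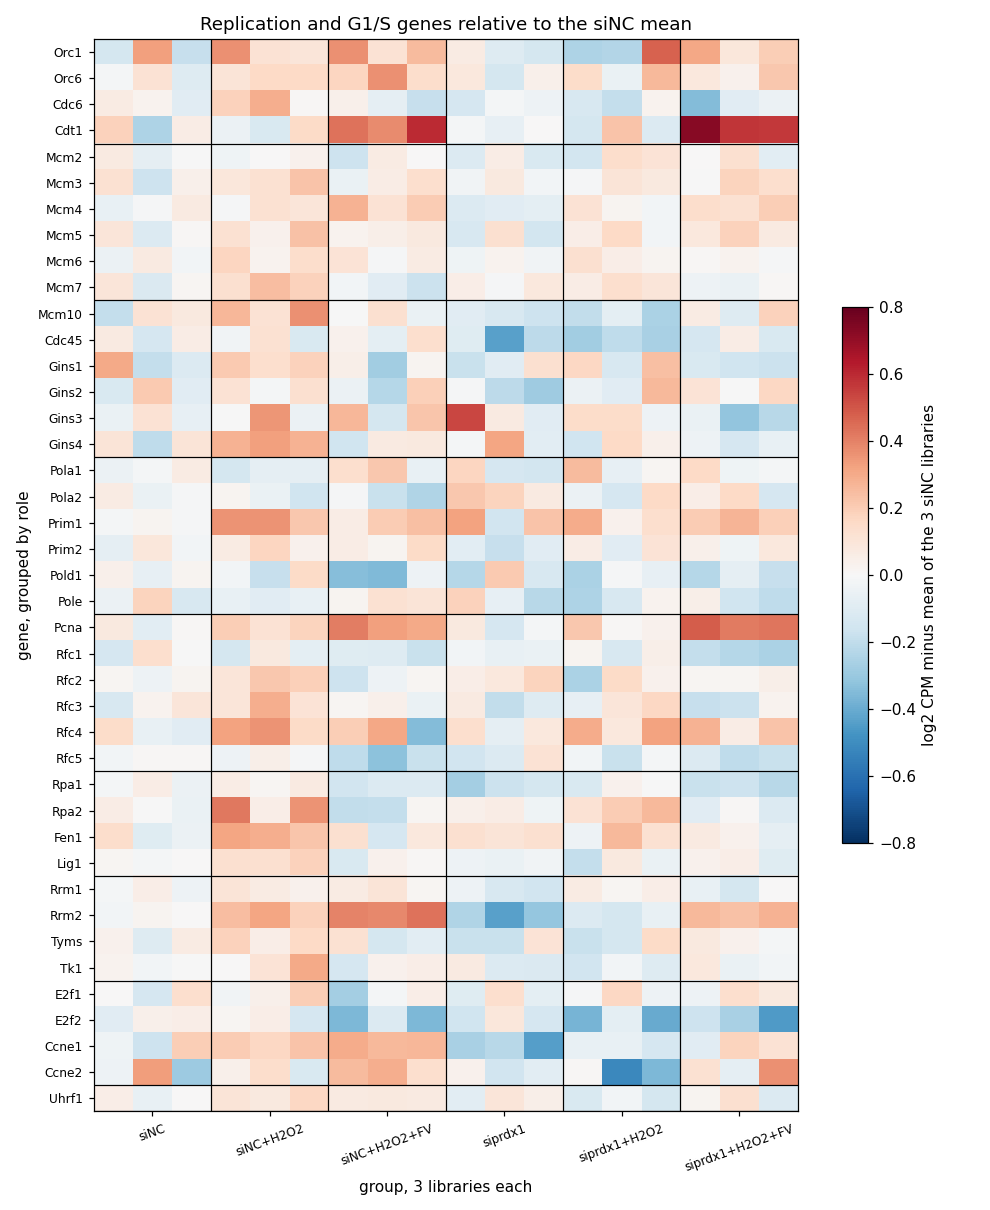
Log2 CPM of the 41 genes in the 18 libraries, each minus the mean of the 3 siNC libraries (red higher, blue lower). Columns are libraries in 6 groups of 3, rows are genes in blocks from origin licensing at the top to Uhrf1 at the bottom. The rows of Cdt1, Pcna and Rrm2 are red in all 6 fluvastatin libraries, and Rrm2 is blue in siprdx1; most other rows stay pale.

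Hydrogen peroxide was followed by 1 change among the 41 genes in each arm, a rise of Rrm2. In siNC, 1 gene rose and 0 fell, where 6.95% of all genes passed (2.36% higher, 4.59% lower). In siprdx1, 1 rose and 0 fell, where 7.87% passed (2.48% higher, 5.39% lower). In siNC the median log2 difference of the 41 was 0.13 against 0.01 over all genes, with 32 above 0 (78%, against 51.7% of all genes) and 10 at an unadjusted p below 0.05 (24.4%, against 21.6%). In siprdx1 the median was 0.04 against 0.02, with 26 above 0 (63.4%, against 54.6%) and 4 at an unadjusted p below 0.05 (9.76%, against 20.6%). Same-numbered libraries deviated together weakly in the siNC comparison (r of 0.118 to 0.135), though the labels record no pairing. With the number as a block 2 genes passed there, Pcna and Rrm2. In siNC, leaving out siNC replicate 1 gave a count of 3, and leaving out siNC+H2O2 replicate 2 gave 2. Over all genes these 2 fits gave 1155 and 837. The siprdx1 count was 0 without siprdx1 replicate 2, 0 without siprdx1+H2O2 replicate 3, 2 without siprdx1+H2O2 replicate 1 and 0 with siprdx1+H2O2 replicate 3 alone.

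Beside this, the macrophage marker sum, over 14 of 14 markers tested with none at 0, was 8250 to 9150 CPM in siNC and 9510 to 10200 CPM in siNC+H2O2, and 8060 to 8300 and 8380 to 8600 CPM in the siprdx1 groups. The 7 fibroblast markers, 6 of them tested and none at 0, summed to 17800 to 18800 and then 18900 to 19600 CPM in siNC. In siprdx1 they summed to 15000 to 15800 and then 17300 to 18500 CPM. The sum of the 9 Leydig markers was 1210 to 1250 CPM before and 1250 to 1270 after in siNC. In siprdx1 it was 1160 in all 3 libraries before and 1090 to 1140 after. A sum weighs the most abundant markers. Of the 7 tested Leydig markers 5 were above 0 with peroxide in siNC and 4 in siprdx1. The 5 endothelial markers, all tested and none at 0, overlapped between the groups in both arms, at 76.2 to 87.5 and 86.4 to 99.6 CPM in siprdx1. The part of other cell types in the values of the 41 genes was not tested. With GC-content offsets 7 genes passed in siNC: Fen1, Gins4, Mcm7, Pcna, Prim1, Rpa2 and Rrm2, all higher. The same offsets gave 3 in siprdx1: Rpa1, Rrm1 and Rrm2.

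Fluvastatin after peroxide was followed by the most changes among the 41 genes. In siNC 10 of the 41 passed, 3 higher and 7 lower, where 24.9% of all genes passed (13.5% higher, 11.3% lower). In siprdx1 7 passed, 4 higher and 3 lower, where 23.6% passed (12.6% higher, 11% lower). The members' share of 24.4% in siNC lay at the background, and the 17.1% in siprdx1 lay below it. The median log2 difference was -0.09 in siNC and 0.01 in siprdx1, against -0.01 over all genes in both. In siNC 29 of the 41 were below 0 (70.7%, against 51.7% of all genes), and in siprdx1 19 were (46.3%, against 51%). The siNC comparison shares the siNC+H2O2 libraries with that of peroxide in siNC. The fluvastatin comparisons of the 2 arms shared no library. Cdt1, Pcna and Rrm2 rose and Rpa1 and Rpa2 fell in both, which is 50% of the 10 and 71.4% of the 7; over all genes the 2498 genes that passed in both with the same sign were 61.1% and 64.4%. Across the 41 genes the fluvastatin differences of the arms correlated at 0.678, against 0.717 across all genes, and had the same sign in 25 (61%), against 68.7% of all genes. These are across genes, which are not independent replicates.

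The fluvastatin counts moved when single libraries were left out. Without 1 library the siNC count was 3 (siNC+H2O2 replicate 1 or siNC+H2O2+FV replicate 2), 4 (siNC+H2O2 replicate 3 or siNC+H2O2+FV replicate 1), 5 (siNC+H2O2 replicate 2) or 10 (siNC+H2O2+FV replicate 3). The siprdx1 count was 3 without siprdx1+H2O2 replicate 3, siprdx1+H2O2+FV replicate 1 or siprdx1+H2O2+FV replicate 3, 4 without siprdx1+H2O2 replicate 2, and 3 with siprdx1+H2O2 replicate 3 alone. Over all genes the fits without 1 library gave 3096 to 3983 in siNC and 3117 to 3653 in siprdx1, against 4090 and 3876. Scaling by library size alone moved the median of all genes to -0.11 in both arms. It gave 1 higher and 16 lower in siNC and 3 higher and 7 lower in siprdx1. Over all genes it gave 1474 higher and 3835 lower in siNC and 1463 higher and 3634 lower in siprdx1. Sums of marker lists also moved with fluvastatin. The 9 Leydig markers, 7 of them tested and none at 0, summed to 1250 to 1270 CPM in siNC+H2O2 and 1630 to 1670 CPM with fluvastatin. In the siprdx1 arm they summed to 1090 to 1140 and 1500 to 1540 CPM. The 5 smooth muscle markers, all tested and none at 0, summed to 1230 to 1320 and 2180 to 2320 CPM in siNC and 1020 to 1150 and 1850 to 2090 CPM in siprdx1. The macrophage sums were 9510 to 10200 and 8370 to 8480 CPM in siNC and 8380 to 8600 and 8730 to 9150 CPM in siprdx1. The 7 fibroblast markers summed to 18900 to 19600 and 18200 to 18900 CPM in siNC and 17300 to 18500 and 15800 to 16400 CPM in siprdx1. The 5 endothelial markers summed to 99.3 to 100 and 96.3 to 97.9 CPM in siNC and 86.4 to 99.6 and 81.3 to 83.5 CPM in siprdx1. The Sertoli sums, over 6 markers of which 5 were tested, overlapped in both arms. Single markers went both ways. Of the 7 tested Leydig markers 2 passed higher and 2 lower in siNC, and 3 higher and 1 lower in siprdx1. Of the 14 macrophage markers 1 passed higher and 6 lower in siNC, and 2 higher and 0 lower in siprdx1. The part of other cell types in the changes was not tested.

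**Figure D2:**
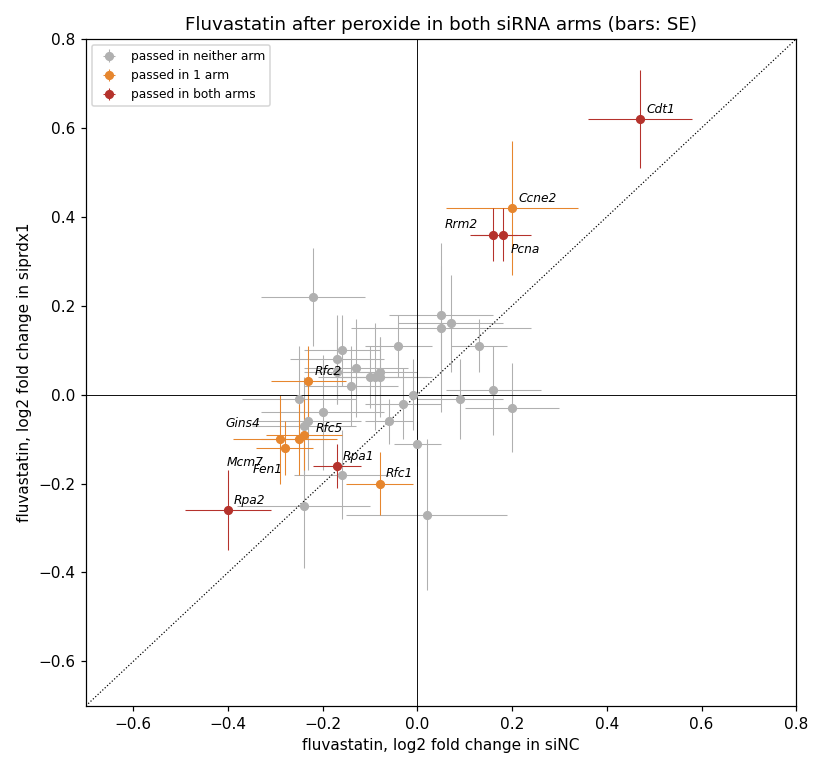
Log2 fold change after fluvastatin (siNC+H2O2+FV against siNC+H2O2) on the horizontal axis and the same in the siprdx1 arm on the vertical axis, for the 41 genes, with standard errors as bars and the diagonal dotted. Cdt1, Pcna and Rrm2 lie in the upper right and Rpa1 and Rpa2 in the lower left, and the genes that passed in neither arm are grey.

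Licensing factors were led by Cdt1, which brings the MCM ring to the origin and is destroyed once S phase begins. Its level was 23.2, 17.2 and 21.2 CPM in siNC, 19.7, 18.7 and 22.7 in siNC+H2O2, and 27.5, 26.5 and 30.8 in siNC+H2O2+FV. In the siprdx1 arm it was 20.2, 19.5 and 20.4, then 18.5, 23.9 and 18.9 with peroxide, and 33.8, 30.3 and 30.1 with fluvastatin. The 6 fluvastatin libraries were above all other libraries in their arm. Fluvastatin raised Cdt1 by 0.47 ± 0.11 (SE, log2) in siNC (edgeR adjusted p = 0.00219) and by 0.62 ± 0.11 in siprdx1 (edgeR adjusted p = 0.000105), which is 38.6% and 53.8% more. Cdt1 passed in both arms in all alternative fits, including each library left out, with siNC values of 0.37 to 0.56 and siprdx1 values of 0.52 to 0.75. Peroxide and the siRNA left no detectable difference in it, with log2 values between -0.03 and 0.03 without fluvastatin and SEs of 0.11. Cdc6, the loading ATPase that acts with Cdt1, had values of -0.24 ± 0.11 in siNC and -0.07 ± 0.11 in siprdx1 after fluvastatin, neither past the threshold. Orc1 and Orc6 did not pass in any comparison.

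The MCM ring stayed within narrow limits. Mcm6 ran from 87.6 to 102 CPM over the 18 libraries, Mcm2 from 35.9 to 44.4, Mcm3 from 42.2 to 55.5, Mcm4 from 43.7 to 57.4 and Mcm5 from 39.1 to 50.8. These 5 genes passed in no comparison, and the range of their siNC fluvastatin values was -0.10 to 0.13. Mcm7 was the ring gene that passed. It was at 58, 50 and 54.7 CPM in siNC, 59.1, 64.3 and 61.4 in siNC+H2O2, and 53.3, 50.8 and 48 in siNC+H2O2+FV, where the peroxide and fluvastatin libraries did not overlap. It fell by 0.28 on the log2 scale with fluvastatin in siNC (SE 0.06, edgeR adjusted p = 0.00147), and it did so in every alternative fit (-0.39 to -0.23). In siprdx1 it was 56.4, 59.4 and 57.8 CPM with peroxide and 52.7, 52.2 and 54.6 with fluvastatin, a log2 difference of -0.12 ± 0.06 that did not pass (edgeR adjusted p = 0.174). The arms were not shown to differ, since the interaction was 0.16 ± 0.09 (edgeR adjusted p = 0.462). Exons of Mcm7 overlap those of Cops6 and Ap4m1 on the opposite strand and of microRNA genes, and Cops6 had -0.24 ± 0.06 in siNC (edgeR adjusted p = 0.00371). Whether the counting used strand is not given in the sources used here, so reads of overlapping genes cannot be told apart.

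Of the 6 helicase activation genes, Mcm10, which helps the activated helicase to leave the origin, was lower with siprdx1 after peroxide. Mcm10 was at 8.17, 10.1 and 9.83 CPM in siNC, 11.2, 10.1 and 12 in siNC+H2O2 and 9.3, 10.2 and 8.99 in siNC+H2O2+FV. In siprdx1 it was 8.74, 8.55 and 8.32, then 8.13, 8.85 and 7.82 with peroxide and 9.74, 8.67 and 10.6 with fluvastatin. With peroxide, all 3 siprdx1 libraries were below all 3 siNC libraries. The log2 difference there was -0.43 ± 0.11 (edgeR adjusted p = 0.0322). It did not pass without siNC+H2O2 replicate 1 or 3 or without siprdx1+H2O2 replicate 1 or 3, without the filter, with only the groups compared or with siprdx1+H2O2 replicate 3 alone, and the adjusted p over all alternatives was 0.00845 to 0.205. Gins4, a GINS subunit, fell with fluvastatin in siNC by 0.29 ± 0.10 (edgeR adjusted p = 0.0423), from 25.5, 26.5 and 25.5 to 18.9, 22.1 and 22.2 CPM. This call was lost without any of 5 libraries (all but siNC+H2O2+FV replicate 3). Without peroxide Gins4 was at 22.6, 18.3 and 22.6 CPM in siNC, near its fluvastatin level. Peroxide had given 0.29 with the same siNC+H2O2 libraries (edgeR adjusted p = 0.0983). Cdc45 and Gins1, Gins2 and Gins3 did not pass in any comparison.

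The polymerase and primase genes Pola1, Pola2, Prim1, Prim2, Pold1 and Pole, which start and extend the new strands, passed in no comparison. Their log2 values ran from -0.23 to 0.20 with fluvastatin in siNC and from -0.06 to 0.06 in siprdx1. Prim1, the catalytic subunit of primase, was the highest of them with peroxide in siNC, at 0.31, with 9.12, 9.35 and 9.15 CPM before and 11.8, 11.8 and 10.7 after; it did not pass (edgeR adjusted p = 0.0981).

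The clamp gene Pcna rose with fluvastatin in both arms, and 3 of the 5 genes of its loader fell in 1 arm each. Pcna was at 134, 120 and 128 CPM in siNC, 146, 138 and 144 in siNC+H2O2 and 169, 160 and 157 in siNC+H2O2+FV. In siprdx1 it was 134, 116 and 126, then 148, 128 and 130, and 178, 170 and 171 with fluvastatin. The fluvastatin libraries lay above all peroxide libraries in both arms. Pcna rose by 0.18 ± 0.06 in siNC (edgeR adjusted p = 0.0327) and by 0.36 ± 0.06 in siprdx1 (edgeR adjusted p = 0.000136). The siprdx1 call held in every alternative fit (0.25 to 0.43). The siNC call was lost with library size alone (0.08) and without siNC+H2O2 replicate 1, 2 or 3 or siNC+H2O2+FV replicate 1 or 2. Peroxide alone gave 0.16 in siNC and 0.11 in siprdx1, neither past the threshold by edgeR (adjusted p = 0.12 and 0.347). The Pcna counts can hold reads of the pseudogene Pcna-ps2, which matches at 99.232% over 781 bases; its own counts were 0.83% of those of Pcna.

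Of the loader subunits, Rfc2 and Rfc5 fell in siNC by 0.23 and 0.24 on the log2 scale (SE 0.08 each, edgeR adjusted p = 0.0481 and 0.0362). Rfc1, the large subunit, fell in siprdx1 by 0.20 (SE 0.07, edgeR adjusted p = 0.0376). Rfc2 was at 24.1, 23.1 and 24.2 CPM in siNC, 25.5, 27.6 and 27.2 in siNC+H2O2 and 21.2, 23.1 and 24.1 in siNC+H2O2+FV. Rfc5 was at 19, 19.5 and 19.5 CPM in siNC, 18.8, 20 and 19.2 in siNC+H2O2 and 16.8, 15.4 and 17.1 in siNC+H2O2+FV. Rfc1 was at 62.6, 56.4 and 63.8 CPM with peroxide in siprdx1 and 54.2, 52.8 and 51.8 with fluvastatin. The peroxide and fluvastatin libraries did not overlap for any of the 3 genes. Rfc2 and Rfc5 lost their call without the filter, with DESeq2, and when any siNC+H2O2 library or siNC+H2O2+FV replicate 1 or 2 was left out, and Rfc5 also with GC-content offsets or only the groups compared. Rfc1 lost its call without the filter, with only the groups compared, with siprdx1+H2O2 replicate 3 alone, and when siprdx1+H2O2 replicate 1 or 3 or any fluvastatin library was left out. Rfc2 shares 952 bases of exon with Lat2 and Rfc5 shares 499 with Wsb2 on the opposite strand; Wsb2 rose by 0.23 ± 0.05 in siNC (edgeR adjusted p = 0.00194). Lat2 fell there by 0.18 on the log2 scale (SE 0.06, edgeR adjusted p = 0.0447), in the direction of Rfc2. Rfc3 and Rfc4 did not pass in any comparison.

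Of the 4 genes of single-strand binding and fragment joining, 3 fell with fluvastatin in siNC and 2 in siprdx1. Rpa2, the middle subunit of RPA, was at 20.9, 20 and 19.3 CPM in siNC, 26.9, 20.8 and 25.7 in siNC+H2O2 and 17.5, 17.6 and 20.3 in siNC+H2O2+FV. In siprdx1 it was 20.6, 20.9 and 19.6, then 21.7, 23.1 and 24, and 18.8, 20.2 and 18.6 with fluvastatin. The peroxide and fluvastatin libraries did not overlap in either arm, and the fluvastatin levels lay near those without peroxide. Rpa2 fell by 0.40 in siNC (SE 0.09, edgeR adjusted p = 0.00169) and by 0.26 in siprdx1 (SE 0.09, edgeR adjusted p = 0.0375). The siNC call held in all alternative fits (-0.50 to -0.33). The siprdx1 call was lost without siprdx1+H2O2 replicate 2 or 3 or siprdx1+H2O2+FV replicate 1 or 3, without the filter, and with siprdx1+H2O2 replicate 3 alone. The siNC comparison and the peroxide comparison share the siNC+H2O2 libraries, and peroxide had given 0.29 for Rpa2 in siNC (edgeR adjusted p = 0.0503).

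Rpa1, the large subunit, fell by 0.17 in siNC (SE 0.05, edgeR adjusted p = 0.0219) and by 0.16 in siprdx1 (SE 0.05, edgeR adjusted p = 0.0363). Its levels were 89.8, 87.2 and 90.5 CPM with peroxide in siNC and 77.6, 79.8 and 79.8 with fluvastatin, and 79.3, 88.4 and 85.9 against 76.3, 76.8 and 74 in siprdx1. Both arms were without overlap. The siNC call was lost without siNC+H2O2 replicate 1 or 3 or siNC+H2O2+FV replicate 1 or 2, and the siprdx1 call without siprdx1+H2O2 replicate 2 or 3 or any fluvastatin library, with only the groups compared and with siprdx1+H2O2 replicate 3 alone; both were lost without the filter. Fen1, the flap endonuclease of the lagging strand, fell in siNC by 0.25 (SE 0.08, edgeR adjusted p = 0.0349), from 30.6, 30 and 28.6 to 26.8, 22.4 and 26 CPM. The fall did not pass with GC-content offsets or without siNC+H2O2 replicate 1 or 2 or siNC+H2O2+FV replicate 2. Without peroxide Fen1 was at 27.1, 23 and 23.8 CPM in siNC, near its fluvastatin level. Peroxide had given 0.27 with the same siNC+H2O2 libraries (edgeR adjusted p = 0.0508). Fen1 shares 2039 bases of exon with Gm10143 and Tmem258 on the opposite strand, and Tmem258 had -0.13 ± 0.13 (edgeR adjusted p = 0.49). Lig1, the ligase that seals the fragments, did not pass in any comparison and had -0.17 ± 0.07 with fluvastatin in siNC (edgeR adjusted p = 0.0608).

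Among the genes of nucleotide supply, Rrm2 passed in 6 comparisons and Rrm1, Tyms and Tk1 passed in none. Rrm2 encodes the radical-bearing subunit of ribonucleotide reductase, which makes deoxyribonucleotides and whose level follows the cell cycle, while Rrm1 encodes the large subunit. Rrm2 was at 65.6, 67.5 and 66.6 CPM in siNC, 79.1, 82.7 and 75.7 in siNC+H2O2 and 87.8, 86.9 and 89.8 in siNC+H2O2+FV. In siprdx1 it was 56.4, 49.3 and 53.8, then 61.8, 60.3 and 63.8 with peroxide and 79.8, 78.3 and 80.6 with fluvastatin. No library of a group overlapped with a library of the next group in its arm, and each siprdx1 group lay under its siNC partner.

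Peroxide raised Rrm2 by 0.25 ± 0.06 in siNC (edgeR adjusted p = 0.00658) and by 0.22 ± 0.06 in siprdx1 (edgeR adjusted p = 0.0146). Fluvastatin raised it by 0.16 ± 0.05 in siNC (edgeR adjusted p = 0.0399) and by 0.36 ± 0.06 in siprdx1 (edgeR adjusted p = 2.66e-05). The siRNA lowered it: the log2 difference of siprdx1 to siNC was -0.33 ± 0.06 without peroxide (edgeR adjusted p = 0.00126) and -0.35 ± 0.06 after peroxide (edgeR adjusted p = 0.000495). After peroxide and fluvastatin it was -0.15 ± 0.05 and did not pass (edgeR adjusted p = 0.151). The fluvastatin interaction was 0.20 ± 0.08 (edgeR adjusted p = 0.264), and the peroxide interaction was -0.03 ± 0.08 (edgeR adjusted p = 0.997), so neither effect was shown to differ between the arms.

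The peroxide call in siNC and the siRNA call without peroxide held in every alternative fit for Rrm2. The siRNA call after peroxide held in all but that with siprdx1+H2O2 replicate 3 alone, where it was -0.31 (adjusted p = 0.0868). The peroxide call in siprdx1 was lost without siprdx1 replicate 2, without siprdx1+H2O2 replicate 3, with that replicate alone and with only the groups compared. The fluvastatin call in siNC was lost with library size alone (0.05), without the filter, and without siNC+H2O2 replicate 1 or 3 or any fluvastatin library. In siprdx1 it held in all, with 0.26 to 0.38. Rrm1 lay between 124 and 148 CPM in all 18 libraries.

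**Figure D3:**
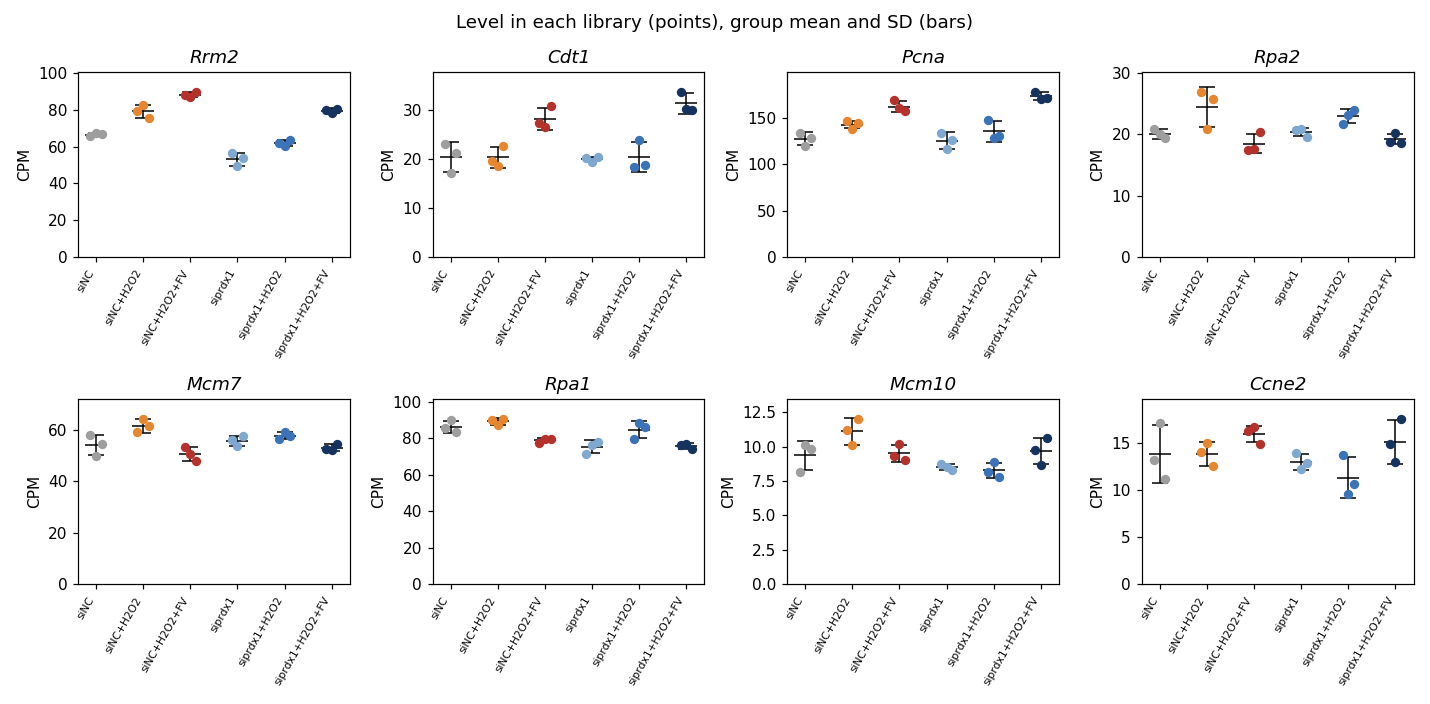
CPM of 8 genes in the 18 libraries as points, with the group mean and SD as black bars, on vertical axes that begin at 0 and groups along the horizontal axis. Rrm2, Cdt1 and Pcna are highest in the fluvastatin group of each arm, while Rpa2 and Rpa1 are lower there than with peroxide alone, and Mcm10 is lower in siprdx1+H2O2 than in siNC+H2O2.

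Of the 4 genes of the G1/S switch, 1 passed in 1 comparison. Ccne2, a cyclin E, rose with fluvastatin in siprdx1 by 0.42 ± 0.15 (edgeR adjusted p = 0.0381), from 13.7, 9.51 and 10.6 to 14.8, 12.9 and 17.5 CPM. The groups overlapped, and the call was lost without siprdx1+H2O2 replicate 2 or 3 or siprdx1+H2O2+FV replicate 1 or 3, with library size alone, with only the groups compared and with siprdx1+H2O2 replicate 3 alone. In siNC the value was 0.20, with 14, 15 and 12.5 CPM before and 16.2, 16.6 and 14.9 after; it did not pass. Ccne2 shares 609 bases of exon with Ints8 on the opposite strand. Ccne1, the other cyclin E, was at 7.12, 6.51 and 8.35 CPM in siNC and at 6.1, 6.26 and 5.38 in siprdx1, a log2 difference of -0.30 ± 0.11 that did not pass (edgeR adjusted p = 0.251); after peroxide it was -0.29 ± 0.11 (edgeR adjusted p = 0.213). E2f1 and E2f2, the activating E2F factors, lay at 20.2 to 27.9 and 8.09 to 11.8 CPM and did not pass in any comparison. Uhrf1, which carries DNA methylation over to the new strand, lay at 38.2 to 47.1 CPM and did not pass; after peroxide its siprdx1 to siNC difference was -0.21 ± 0.07 (edgeR adjusted p = 0.107).

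The siRNA against Prdx1 was followed by falls in few of the 41 genes. Without peroxide 0 were higher and 1 was lower (Rrm2), where 2.33% of all genes passed (0.657% higher, 1.67% lower). After peroxide 0 were higher and 2 were lower (Rrm2 and Mcm10), where 2.73% passed (0.901% higher, 1.83% lower). After peroxide and fluvastatin 0 passed by edgeR or DESeq2, where 3.97% passed (1.62% higher, 2.35% lower), and 2 had an unadjusted p below 0.05 (4.88%, against 16.6% of all genes). Without peroxide 4 had one (9.76%, against 11.1%), and after peroxide 11 did (26.8%, against 13.9%). The median log2 differences were -0.04, -0.09 and -0.01, against 0.00 over all genes in each. Without peroxide 30 of the 41 were below 0 (73.2%), and after peroxide and fluvastatin 22 were (53.7%), against 48.9% of all genes in both. After peroxide alone 36 of the 41 were below 0 (87.8%, against 48.9% of all genes). The siNC+H2O2 libraries used there also enter the siNC peroxide and fluvastatin comparisons and both interactions, so these are not separate results. Averaged over the 39 genes of at least 5 CPM, standardized log2 CPM was 0.63, 0.71 and 0.79 in siNC+H2O2. In no other library was it above 0.09. Without peroxide it was -0.01, -0.22 and -0.12 in siNC and -0.35, -0.47 and -0.51 in siprdx1, without overlap. The 41 genes are not independent replicates. The count after peroxide was 1 without siNC+H2O2 replicate 1 or 3 or siprdx1+H2O2 replicate 1 or 3, and 0 with siprdx1+H2O2 replicate 3 alone. With GC-content offsets it was 6, with Gins4, Lig1, Tk1 and Uhrf1 beside Mcm10 and Rrm2. Over all genes these offsets gave 1175, against 448 without them.

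Marker sums also differed between siNC and siprdx1. Without peroxide the fibroblast sum was 17800 to 18800 CPM in siNC and 15000 to 15800 CPM in siprdx1, the endothelial sum 95.6 to 104 and 76.2 to 87.5, the smooth muscle sum 1200 to 1380 and 1010 to 1100, and the Leydig sum 1210 to 1250 and 1160. After peroxide the macrophage sum was 9510 to 10200 CPM in siNC and 8380 to 8600 in siprdx1, the fibroblast sum 18900 to 19600 and 17300 to 18500, the Leydig sum 1250 to 1270 and 1090 to 1140, and the smooth muscle sum 1230 to 1320 and 1020 to 1150. None of these ranges overlapped between the arms. Other ranges did: the macrophage sum without peroxide (8250 to 9150 and 8060 to 8300) and the endothelial sum after peroxide (99.3 to 100 and 86.4 to 99.6). The Sertoli sums overlapped in both. After peroxide and fluvastatin the macrophage sum was higher in siprdx1, at 8730 to 9150 against 8370 to 8480 CPM. The fibroblast, Leydig, smooth muscle and endothelial sums were lower in siprdx1 there, without overlap. Single markers did not all follow the sums. Of the 6 tested fibroblast markers 3 were above 0 with the siRNA without peroxide, and 3 after peroxide. After peroxide 2 of them passed higher and 1 lower. Of the 7 tested Leydig markers 3 were above 0 without peroxide and 4 after it. The part of these cell types in the values of the 41 genes was not tested.

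Tests of the difference between the arms passed for 0 of the 41 genes by edgeR. For the peroxide effect 0.243% of all genes passed (0.0426% higher, 0.201% lower), 4 of the 41 had an unadjusted p below 0.05 (Gins4, Rfc2, Fen1 and Uhrf1; 9.76%, against 5.95% of all genes) and DESeq2 gave 0. For the fluvastatin effect 0.651% of all genes passed (0.463% higher, 0.189% lower), 5 of the 41 had an unadjusted p below 0.05 (12.2%, against 12.9% of all genes) and DESeq2 gave 0. These 5 were Mcm10 (0.44 ± 0.15, edgeR adjusted p = 0.221), Rfc2, Rrm2, Tk1 and Lig1, each above 0. For the fluvastatin interaction 32 of the 41 were above 0 (78%, against 51.5% of all genes), with a median of 0.14 against 0.01. For the peroxide interaction 30 were below 0 (73.2%, against 48.8%), with a median of -0.06 against 0.01. The siNC+H2O2 and siprdx1+H2O2 libraries enter both interactions with opposite signs, so these are not separate results. The 95% interval of the effect lay within ±0.5 for 36 and 37 of the 41 for fluvastatin in siprdx1 and siNC, and within it for 30 and 31 for the fluvastatin and peroxide interactions. With GC-content offsets Pcna and Rrm2 passed for the fluvastatin interaction, where 571 of all genes passed, against 107 without the offsets.

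Genes around the 41 were counted in 3 lists. Among 36 G1/S control genes, all tested, fluvastatin gave 2 higher and 8 lower in siNC and 3 higher and 9 lower in siprdx1, which is 27.8% and 33.3% of the list against the 24.9% and 23.6% of all genes; the list's median log2 difference was -0.02 and -0.09 against -0.01. Myc, a growth-promoting transcription factor, rose from 71.5, 71.5 and 75.6 to 195, 219 and 229 CPM in siNC (log2 1.56 ± 0.07) and from 61.6, 78 and 73.2 to 228, 234 and 223 CPM in siprdx1 (1.68 ± 0.07). Its peroxide and fluvastatin libraries did not overlap (edgeR adjusted p = 4.36e-14 and 7.23e-15). Mycn, its relative, fell by 0.84 ± 0.19 and 1.13 ± 0.19 (edgeR adjusted p = 0.00164 and 6.62e-05). The CDK inhibitor genes went both ways. Cdkn1a (p21) rose by 0.49 ± 0.06 and 0.80 ± 0.06, while Cdkn1b (p27) fell by 0.54 ± 0.09 and 1.07 ± 0.09, Cdkn2b (p15) by 0.55 ± 0.07 and 0.58 ± 0.07, and Cdkn2d (p19) by 0.68 ± 0.11 and 0.59 ± 0.10, in siNC and siprdx1 respectively (edgeR adjusted p of at most 0.000154 for each).

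Peroxide and the siRNA were followed by few changes among these 36 genes. Peroxide gave 2 higher and 1 lower in siNC (8.33%, against 6.95% of all genes): Myc (0.48 ± 0.07), Cdkn1a (0.29 ± 0.06) and Skp2, a subunit of a ubiquitin ligase that targets p27 (-0.37 ± 0.10), with edgeR adjusted p of at most 0.0252. In siprdx1 it gave 2 higher and 0 lower (5.56%, against 7.87%), Cdkn1c, the CDK inhibitor p57 (0.40 ± 0.09), and Cdkn1a (0.24 ± 0.06), with edgeR adjusted p of at most 0.0171. The siRNA without peroxide gave 1 higher, Myc (0.27 ± 0.07), and 1 lower, Cdkn1c (-0.40 ± 0.09), which is 5.56% against 2.33% (edgeR adjusted p = 0.046 and 0.0219). After peroxide it gave 1 higher, Tfdp2, a partner of E2F factors (0.29 ± 0.06), and 1 lower, Cdkn1a (-0.26 ± 0.06), or 5.56% against 2.73% (edgeR adjusted p = 0.0118 and 0.0217). After peroxide and fluvastatin 0 were higher and 2 lower, Ccnd2, a cyclin D (-0.26 ± 0.05), and Skp2 (-0.41 ± 0.11), or 5.56% against 3.97% (edgeR adjusted p = 0.00101 and 0.0326).

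**Figure D4:**
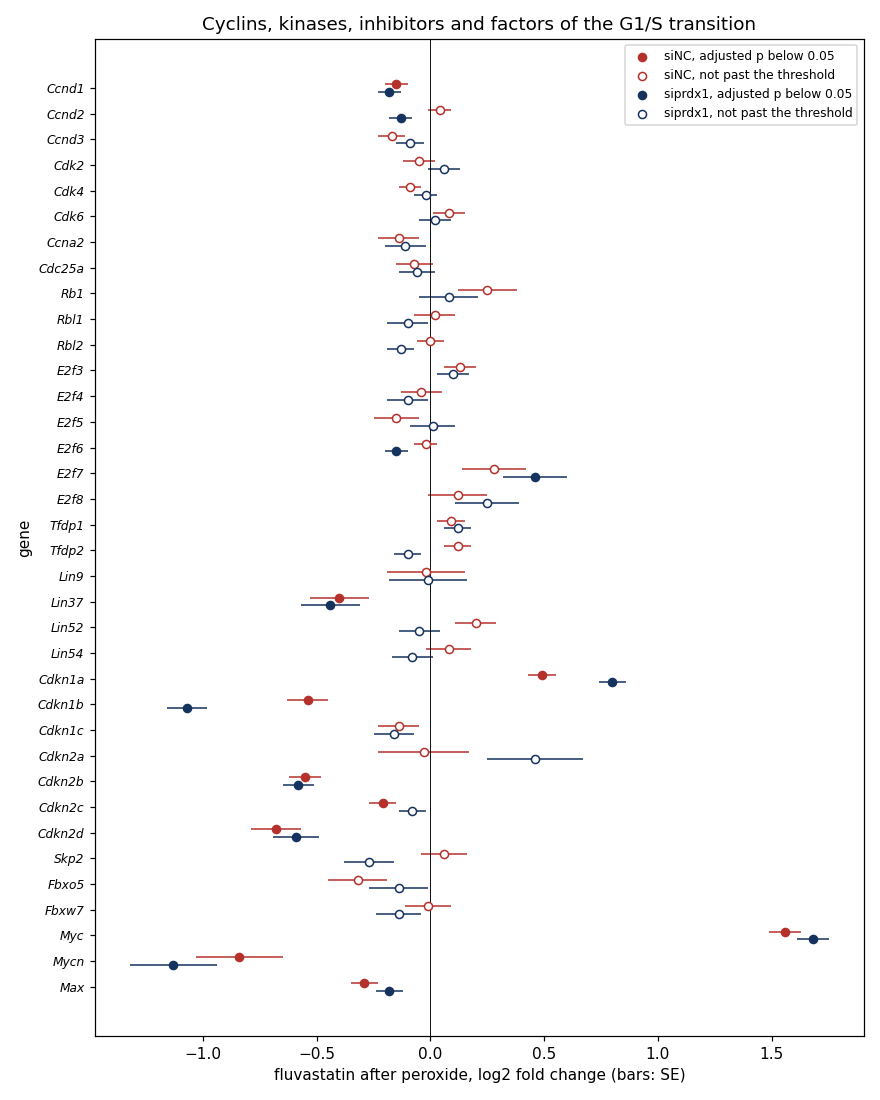
Log2 fold change after fluvastatin for the 36 G1/S control genes, red for siNC and blue for siprdx1, with standard errors as bars; filled points passed and open points did not. Myc lies far to the right in both arms, and Mycn, Cdkn1b, Cdkn2b and Cdkn2d lie to the left.

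Among the 41 other replication genes, all tested, fluvastatin gave 2 higher and 0 lower in siNC and 3 higher and 0 lower in siprdx1, which is 4.88% and 7.32% against the 24.9% and 23.6% of all genes. Slbp, which binds histone mRNA, rose by 0.32 ± 0.08 and 0.43 ± 0.08, and Nasp, a histone chaperone, by 0.24 ± 0.09 and 0.33 ± 0.08 (edgeR adjusted p = 0.00399 and 0.000283 for Slbp, 0.0415 and 0.00605 for Nasp). Dna2, a nuclease-helicase, rose in siprdx1 (0.35 ± 0.12, edgeR adjusted p = 0.0424) and had 0.02 ± 0.12 in siNC. With peroxide Asf1b, a histone chaperone, rose in siNC (0.29 ± 0.08, edgeR adjusted p = 0.0249) and Dna2 fell in siprdx1 by 0.45 (SE 0.12, edgeR adjusted p = 0.0253). Peroxide thus gave 1 of these genes in each arm, 2.44% of the list against 6.95% and 7.87% of all genes.

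Among 18 G2 and mitosis genes, all tested, peroxide gave 1 higher and 1 lower in siNC (11.1%, against 6.95% of all genes). There 17 of 18 were above 0 (94.4%, against 51.7%) and 8 had an unadjusted p below 0.05 (44.4%, against 21.6%). The median was 0.11 against 0.01. In siprdx1 peroxide gave 0 higher and 1 lower (5.56%, against 7.87%). There 10 of 18 were above 0 (55.6%, against 54.6%), with a median of 0.02, as over all genes. Fluvastatin gave 0 higher and 2 lower in siNC (11.1%, against 24.9% of all genes). In siprdx1 fluvastatin gave 1 higher and 0 lower (5.56%, against 23.6%). The gene that rose with peroxide in siNC was Cdk1, the mitotic kinase (0.29 ± 0.06, edgeR adjusted p = 0.00201). The proliferation antigen gene Mki67 fell with peroxide by 0.24 in siNC (SE 0.06, edgeR adjusted p = 0.0159) and by 0.51 in siprdx1 (SE 0.06, edgeR adjusted p = 4.42e-06), and rose with fluvastatin in siprdx1 by 0.33 ± 0.06 (edgeR adjusted p = 0.000225). In siNC its fluvastatin value was 0.15 ± 0.06, which did not pass. In siNC fluvastatin lowered Cdk1 by 0.27 (SE 0.06, edgeR adjusted p = 0.000761) and Plk1, a mitotic kinase, by 0.38 (SE 0.08, edgeR adjusted p = 0.000846). After peroxide the siRNA was followed by lower Mki67 (-0.43 ± 0.06), Cdk1 (-0.24 ± 0.06) and Tpx2, a spindle protein gene (-0.26 ± 0.07), with edgeR adjusted p of at most 0.0488, that is 3 of 18 (16.7%) against 2.73% of all genes. After peroxide and fluvastatin Mki67 was lower with the siRNA by 0.25 (SE 0.06, edgeR adjusted p = 0.0151), 1 of 18 (5.56%, against 3.97% of all genes).

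With siprdx1+H2O2 replicate 3 alone, several of these calls were lost. For peroxide in siprdx1 they were Dna2 (-0.26, edgeR adjusted p = 0.496) and Cdkn1a (0.23, adjusted p = 0.163), while Cdkn1c (0.51) and Mki67 (-0.50) passed. For fluvastatin in siprdx1 they were Dna2 (0.17, edgeR adjusted p = 0.608) and Nasp (0.24, adjusted p = 0.206), while Myc, Mycn, Cdkn1a, Cdkn1b, Slbp and Mki67 passed. The siprdx1 values of Cdkn2b and Cdkn2d were not refitted this way. For the siRNA after peroxide they were Tfdp2 (0.32), Cdkn1a (-0.27), Tpx2 (-0.24) and Cdk1 (-0.23), with edgeR adjusted p of 0.115 to 0.392, while Mki67 passed (-0.43, edgeR adjusted p = 0.0168). The counts with that replicate alone were 0, 1 and 1 for peroxide in siprdx1, 1, 8 and 1 for fluvastatin in siprdx1, and 0, 0 and 1 for the siRNA after peroxide, for the other replication, G1/S control and G2 and mitosis genes in turn.

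Pairs of these genes correlated weakly. Over 18 libraries the median correlation of log2 CPM between pairs of the 39 of them that averaged at least 5 CPM was 0.14 (741 pairs), against 0.00 for all gene pairs, and it was -0.02 once group means were removed. The pairs share libraries and depth. The SD of log2 CPM over the 18 libraries was only 0.0635 (Mcm6) to 0.299 (Cdt1). Weak correlations at such a spread cannot show that the genes share no variation. Among the genes outside the lists whose log2 CPM followed the mean of these 39 most closely over the 18 libraries, of 11182 compared, were Mpp1 (r = 0.929), Lgals1 (0.920), Hcls1 (0.912), S100a13 (0.897), Ppp1ca (0.894), Itgb2 (0.860), Ccl3 (0.854), Msrb1 (0.837) and Eno1 (0.831). Itgb2 and Hcls1 are known from leukocytes, and the macrophage marker sum was also highest in siNC+H2O2; its part in the shared variation was not tested.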

How the data were processed

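Poly(A) RNA of 18 cultures was sequenced as TruSeq stranded libraries in 150 bp paired-end reads, per the labels' protocols. The authors deposited raw read counts per gene; HISAT2, HTSeq and mm10 are named per the submitters' processing notes, and versions, annotation release and strand setting are not given in the sources used here.

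The counts were tested with edgeR 4.0.16 in R 4.3.3: TMM scaling, filterByExpr, robust quasi-likelihood fits to 6 group means (12 residual degrees of freedom), Benjamini-Hochberg adjustment over 16432 genes per comparison, threshold 0.05. The SE is the log2 fold change over the root of F. CPM values use TMM-scaled library sizes. Exon lengths and overlaps came from GENCODE M21, near-identical copies from blastn 2.17.0 (at least 90% over 300 bp), promoters from RefSeq. The fit was tested on simulated counts. Replicates of a group differed by more than sampling noise, so none was merged. DESeq2 1.42.0, other scalings, filters, groups, a replicate block and each library left out were tried; GC-content offsets and siprdx1+H2O2 by replicate 3 alone were added after seeing the data. Same-numbered libraries deviated together (r above 0.1 in every pair: 0.135, 0.135 and 0.118) for peroxide in siNC alone.

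The 41 genes and the lists were chosen with earlier results of these data known. Every member that passed in a comparison was named, 18 members were always described, and each other list gave up to 4 genes with the largest changes per comparison. A gene among those most like the members is not reported here.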

Additional observations from a re-analysis of the deposited data

Results flagged for a closer look

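Cdkn1b was the named gene whose fluvastatin effect differed between the arms. It fell by 0.54 ± 0.09 on the log2 scale in siNC and by 1.07 ± 0.09 in siprdx1, and the interaction was -0.53 ± 0.12 (edgeR adjusted p = 0.0438). Its levels were 64.2, 68.3 and 64.9 CPM in siNC+H2O2 and 46.4, 46.8 and 42.6 with fluvastatin, and 92.6, 70.2 and 78.3 CPM in siprdx1+H2O2 and 36.9, 37.3 and 40.8 with fluvastatin. The siprdx1+H2O2 libraries were above the siNC+H2O2 libraries and the siprdx1+H2O2+FV libraries were below the siNC+H2O2+FV libraries. The call was lost in 10 of the 12 fits that left out 1 library (adjusted p = 0.0549 to 0.155, among them -0.42 and 0.0984 without siprdx1+H2O2 replicate 1). It passed without siNC+H2O2+FV replicate 3 (adjusted p = 0.0386) and without siprdx1+H2O2 replicate 2 (adjusted p = 0.00552). It was also lost with library size alone (adjusted p = 0.0514), with only the groups compared (adjusted p = 0.0622) and with siprdx1+H2O2 replicate 3 alone (-0.49, adjusted p = 0.0963).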

How the results depend on the processing

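Of the 22 changes of the 41 genes that passed, 137 of 165 values under other settings and 76 of 132 with 1 library left out stayed past the threshold, and 0 reversed. The number of the 41 genes that passed moved by more than 1.5 times as follows. For peroxide in siNC (1) it was 3 with RLE size factors, 3 with DESeq2, 2 with the replicate block, 7 with GC-content offsets and 7 with both; for peroxide in siprdx1 (1) it was 0 with only the groups compared, 2 with DESeq2, 3 with GC-content offsets and 0 with siprdx1+H2O2 by replicate 3 alone. For fluvastatin in siNC (10) it was 17 with library size alone and 6 without the filter, and in siprdx1 (7) it was 4 without the filter, 4 with only the groups compared and 3 with replicate 3 alone. For the siRNA without peroxide (1) it was 2 with DESeq2 and 2 with GC-content offsets, and after peroxide (2) it was 1 without the filter, 1 with only the groups compared, 6 with GC-content offsets and 0 with replicate 3 alone. For the fluvastatin interaction (0) it was 2 with GC-content offsets. With 1 library left out the counts ran from 1 to 3 and 0 to 2 for peroxide in siNC and siprdx1, from 3 to 10 and 3 to 6 for fluvastatin, from 1 to 1 and 1 to 3 for the siRNA without and after peroxide, and from 0 to 0 for the other 3 comparisons. The peroxide interaction of Rrm2 (-0.03) changed sign, to 0.01 without siNC+H2O2 replicate 2, 0.02 without siprdx1 replicate 1 and 0.02 with replicate 3 alone; with 1 library left out it ran from -0.08 to 0.02. Outside peroxide in siNC the replicate block moved no count by over 1.5 times. The number of all genes that passed moved with the setting too. It went from 1142 to 2511 with GC-content offsets for peroxide in siNC. For fluvastatin in siNC it went from 4090 to 5309 with library size alone. Leaving out a library also leaves fewer samples. The cause of the other moves was not tested.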
